A study of Mus musculus with 36 samples.

Results

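The tallest peaks of ribosome-protected fragments (RPFs) in the neuronal RNA granule libraries were taken from the deposited peak lists of 12 libraries. A peak was kept when its height was 300 or more and when it lay at codon 51 or later and more than 50 codons before the stop codon of the GENCODE vM21 coding region. The members were thus chosen by height, the value the authors gave to each peak, so the heights, the numbers of members and the folds of height between groups below are descriptions without a test. Of 278002 listed peaks, 208857 lay in this part of the coding regions of 5440 genes, and 1062 of these met the rule. Each peak is listed as an interval on a transcript, and the middle of the interval was taken as its place, since the lists do not give the position of the highest point. Peaks of a gene with middles within 6 nt of each other were joined into a site, which gave 424 sites in 86 genes (1.58% of the 5440 genes). A peak within 6 nt of more than 1 site was counted at each of them, so that the 1062 tall peaks made 1122 entries over the sites.

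The 12 libraries came from whole brains of mice at 5 days of age, from WT C57BL/6 animals and from FMR1 KO animals, which lack the RNA-binding protein FMRP. Brains of 10 animals were pooled for a preparation and homogenised with 10 mM MgCl2, and the ribosomes were sedimented in a sucrose gradient and digested with the standard amount of nuclease. The study used mice of both sexes, so a library may mix sexes, and it holds all cell types of the brain. The pellet of the gradient (called granule in the labels) and fraction 5/6 (called polysome) were sequenced in 3 libraries each for WT and FMR1 KO. The 3 libraries of a group were joined by their linkers before reverse transcription, so the handling from there on cannot be told apart from the group. Whole-brain RNA-seq of the same design (3 WT and 3 FMR1 KO libraries) and RPFs prepared in 2.5 mM MgCl2 with less nuclease (3 libraries of each genotype and fraction) were used only for the genes that host the peaks.

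A ribosome shields the stretch of mRNA it sits on from nuclease, so a place where many ribosomes wait leaves many identical fragments and appears as a peak. In developing neurons many mRNAs are carried in RNA granules with ribosomes that stopped during elongation, and mRNAs of the cytoskeleton are abundant among them. FMRP binds within coding regions and is enriched in these granules, and the comparison of genotypes asks whether the places of stalling move without it. The comparison of pellet with fraction 5/6 asks whether densely packed ribosome clusters hold ribosomes at other places than lighter clusters.

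The sequences under a few sites are given first, each with the middle codon of the site in capitals and 5 codons to each side in lower case, from GENCODE vM21 transcripts with GRCm38 coordinates. The first 3 are among the 4 sites that reached 300 in all 12 libraries, in Tubb2b (a beta-tubulin), Tuba1a (an alpha-tubulin) and Actg1 (gamma-actin). Tubb2b codon 203 lies in exon 4 at chr13:34128185-34128217 on the minus strand, Tuba1a codon 105 in exon 3 at chr15:98951233-98951265 on the minus strand, and Actg1 codon 122 spans an exon junction at chr11:120347332-120347650 on the minus strand.
Tubb2b codon 203: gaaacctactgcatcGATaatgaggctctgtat
Tuba1a codon 105: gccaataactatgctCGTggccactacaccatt
Actg1 codon 122: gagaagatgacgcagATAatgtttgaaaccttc

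The next 4 show sites at matching codons of beta-tubulin genes, where the mRNAs differ by only a few bases. All lie in exon 4. Tubb2b codon 388 is at chr13:34127630-34127662 and Tubb5 codon 388 at chr17:35835138-35835170, both on the minus strand, and they differ in 4 of 33 bases. Tubb5 codon 383 is at chr17:35835153-35835185 on the minus strand and Tubb3 codon 383 at chr8:123421461-123421493 on the plus strand, and they differ in 5 of 33 bases.
Tubb2b codon 388: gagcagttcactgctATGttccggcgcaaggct
Tubb5 codon 388: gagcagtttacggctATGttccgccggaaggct
Tubb5 codon 383: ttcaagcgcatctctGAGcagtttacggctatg
Tubb3 codon 383: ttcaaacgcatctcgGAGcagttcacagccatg

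The last 3 are the tallest sites of Dpysl2 and Map1b, a gene listed in few libraries, and the site with the largest ratio between genotypes (Eif4a1), all described further on. Dpysl2 codon 144 lies in exon 4 at chr14:66834243-66834275 on the minus strand and Map1b codon 1876 in exon 5 at chr13:99430569-99430601 on the minus strand. Eif4a1 codon 257 spans an exon junction at chr11:69668316-69668419 on the minus strand.
Dpysl2 codon 144: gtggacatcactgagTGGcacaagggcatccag
Map1b codon 1876: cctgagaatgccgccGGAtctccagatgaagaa
Eif4a1 codon 257: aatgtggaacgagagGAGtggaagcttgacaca

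The libraries held 6765065 to 40174168 counts, of which a single gene, Cdk8, took 36.7% to 63.4%, and the tall peaks made 0.385% to 0.700% of the peaks in the kept region of a library. Fmr1 was at 35.1 to 37.8 CPM (counts scaled to a library total of 1000000) in the WT pellet, 1.75 to 2.59 in the FMR1 KO pellet and 2.82 to 6.80 in FMR1 KO fraction 5/6. The library labelled WT fraction 5/6 replicate 3 goes against its label in genotype, with Fmr1 at 1.71 CPM where the other WT fraction 5/6 libraries had 50.1 and 28.0. In the same library Map1b stood at 10325 counts per 1000000 protein-coding counts without Cdk8, within the 5088 to 11477 of the pellet libraries and above the 1007 to 2340 of the other fraction 5/6 libraries. Shared places and ratios of height between the fractions are therefore given with and without it. Of the markers of other cell types, the neuronal markers Tubb3, Stmn2 and Gap43 hosted tall peaks and Map2 and Snap25 did not, and none of the 22 markers of glia, vessels, blood and choroid plexus did.

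The rule cut through a dense range of heights. Members just inside included Ndn codon 199, Atp5b codon 152 and Hnrnpa1 codon 252 at 300 and Calm3 codon 58, Vcp codon 668 and Vcp codon 495 at 301. Peaks just outside, at 299, included Eef1a1 codon 276, Sfpq codon 109, Ndn codon 218, Hsp90aa1 codon 498 and Gm17087 codon 97. In all, 94 peaks had heights from 280 to under 300 and 78 had heights of 300 to 320. The heights are not scaled for depth, and the library with the most protein-coding counts held the most members in each of the 4 groups. WT pellet held 135, 90 and 69 tall peaks in replicates 1 to 3, FMR1 KO pellet 122, 92 and 76, WT fraction 5/6 150, 54 and 68, and FMR1 KO fraction 5/6 69, 108 and 29. The fewest were in FMR1 KO fraction 5/6 replicate 3, the library with the smallest total count.

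The genes that host the tallest peaks were among the most abundant mRNAs of the brain. In RNA-seq they had a median percentile of 98.6 by CPM per kilobase among 16536 protein-coding genes, 84 of 86 lay above the 90th percentile and 35 above the 99th. In bulk libraries fewer cells of a type and less RNA per cell cannot be told apart, and this holds for every gene level here. A tall peak in 1 library only was found for 19 of the 86 genes, and 11 genes had tall peaks in all 12 libraries. In the pellet and in fraction 5/6 alike 64 genes had tall peaks, 6 had them in the pellet only (Map1b, Dpysl5, Actr2, Tubb4a, Dpysl3 and Nefl, named after their values were seen), and 16 in fraction 5/6 only. Without the library that goes against its label 7 had them in the pellet only. Of the 16, 13 came from WT fraction 5/6 replicate 1 alone, the library with the most tall peaks. The genes tall in all 12 were the tubulins Tubb2b, Tuba1a and Tubb2a, Gm49450, a readthrough gene model that shares sequence with Tuba1a, the actins Actb and Actg1, Dpysl2 and Stmn2, which bind tubulin in growing axons, Marcks, an actin-binding substrate of protein kinase C, Ubb (polyubiquitin), and Atp5b, a subunit of mitochondrial ATP synthase.

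Cytoskeletal genes carried many of the sites, on gene lists that were drawn up with earlier results of these data known. Of 14 tubulin genes with a peak in the kept region, 8 hosted tall sites, and these 43 sites held 187 of the 1062 tall peaks (17.6%), up to the highest value of 4268. Of 42 genes of actin and its regulators 8 were hosts, with 49 sites, and of 39 microtubule-associated and growth cone genes 11 were hosts, with 78 sites. The signalling list, which includes the 14-3-3 proteins, gave 14 hosts of 73 genes with 99 sites. Marcks, with 27 sites, is on both the actin and the signalling list and was counted in each. Translation factors gave 5 of 36 genes, chaperones 5 of 34, glycolysis and energy metabolism 6 of 39, and ubiquitin and proteasome 4 of 41. Rpl4 of 64 ribosomal protein genes (1.56%), Dctn2 of 24 motor protein genes (4.17%) and Sox4 of 70 chromatin and transcription genes (1.43%) were hosts. RNA-binding proteins gave 5 of 87 genes (5.75%), and none of 33 postsynaptic, receptor and channel genes or 9 spectrins and ankyrins was a host. Over all 5440 genes with peaks in the kept region 1.58% were hosts, so such small counts do not show a lack of hosts. On no list were 17 hosts with 87 sites, among them Ndn, a MAGE-family protein of postmitotic neurons, and Enc1, an actin-associated kelch protein.

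The sites were unevenly spread over the hosts. Dpysl2 (collapsin response mediator protein 2, which promotes microtubule assembly) had 32 sites, Ndn 28, Marcks 27, Ywhag (14-3-3 gamma) 24 and Enc1 21, which together is 132 sites or 31.1% of all, while 22 genes had 1 site each. Per 100 codons of the kept region Ywhag had 16.3 sites, Marcks 12.9, Stmn2 12.7 and Ndn 12.4. In Dpysl2 all 86 peaks of the kept region were tall, in Ndn 90 of 107, in Marcks 66 of 91, in Ywhag 60 of 79 and in Enc1 51 of 83. All peaks of the kept region were tall as well in Tubb2b (59), Tubb2a (37), Actb (37) and Stmn2 (30) among other genes, so that for these the members are every listed peak.

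Along the coding region the sites had no preferred end. Their median place was at 52.0% of the coding region, and 200 of 424 (47.2%) lay before its midpoint. In bins of 10% of the coding region, counted from the start, they numbered 2, 29, 52, 48, 70, 56, 67, 52, 46 and 2, where the outermost bins are largely outside the kept codons. Neighbouring sites of a gene were a median of 25 nt apart, less than the median width of 55 nt of a listed interval (quartiles 41 and 66 nt), and 166 sites (39.2%) had another site within 12 nt. A neighbouring site can thus lie within the interval of another. The sequence of 80 sites crossed an exon junction, and 37 sites lay in transcripts of 1 exon.

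The plot of sites along the 14 genes with most sites shows the arrangement within each gene. In Ndn, Marcks and Ywhag the sites were spread over nearly the whole kept region, as at codons 51 to 274 of 326 in Ndn, and in Dpysl2 they lay at codons 52 to 489 of 573. In Usp22, a deubiquitinase, all 9 sites fell between codons 259 and 313 of 526. In Tubb2a all 10 sites lay at codons 51 to 202, whereas in Tubb5 all 12 lay at codons 255 to 391, although both encode beta-tubulins.

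**Figure D1:**
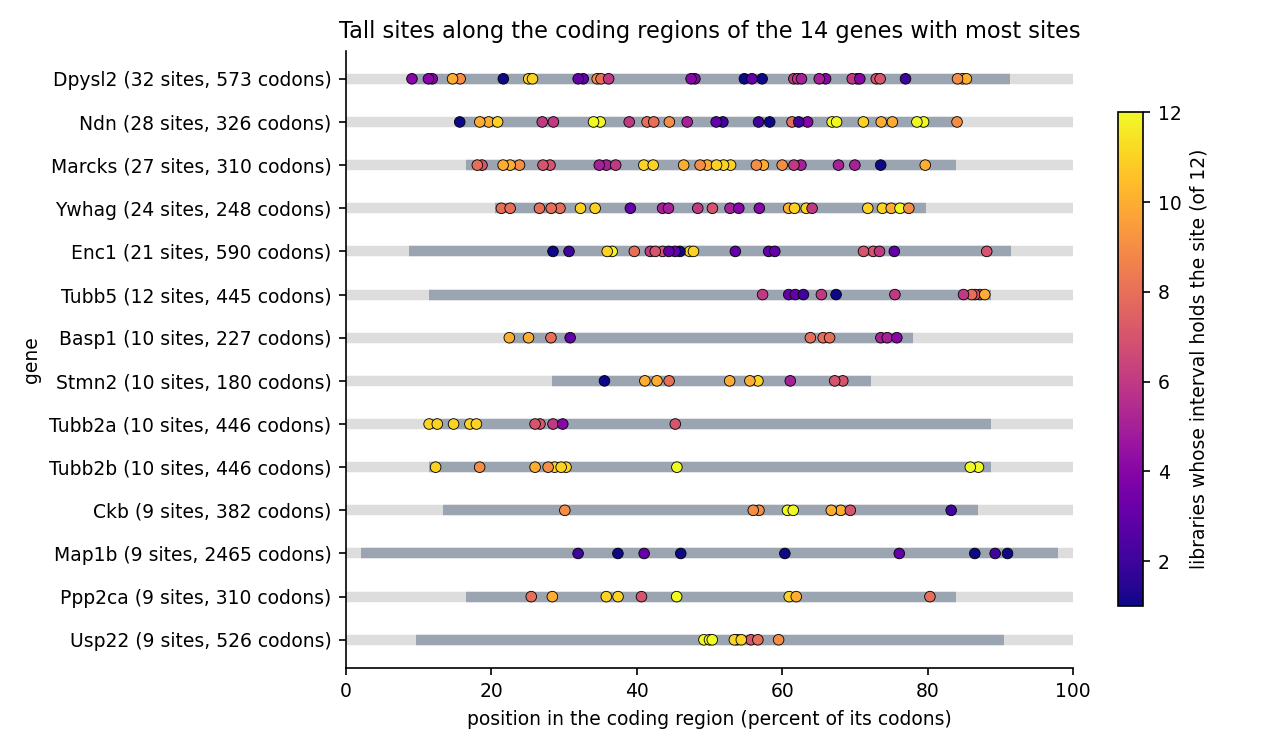
Tall sites along the coding regions of the 14 genes with most sites. The horizontal axis is the position as percent of the codons of the coding region, light bars mark the codons that the rule left out and dark bars those it kept, each point is a site, and its colour gives the number of libraries (of 12) whose interval holds it. The 9 sites of Usp22 sit close together near the middle, whereas the 28 sites of Ndn run along the whole kept region.

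The highest peaks of all were in tubulin mRNAs, and of the 20 tallest sites 19 were in tubulin genes or Gm49450. Of all 424 sites, 214 stayed under 500 in every library. At Tubb2b codon 203, where the middle codon GAT encodes aspartate, the 3 WT pellet libraries had heights of 4268, 2436 and 2102, and the 3 FMR1 KO pellet libraries 3959, 1656 and 2526. In fraction 5/6 they were 4020, 1286 and 2345 in WT and 1848, 3272 and 1290 in FMR1 KO. The 4 groups overlapped, and the highest value of each group was in its library with the most protein-coding counts. Per 1000000 protein-coding counts of its library without Cdk8 (the scaled height), the site stood at 192 ± 13.7 (SD, n = 3) for WT pellet and 197 ± 62.5 (SD, n = 3) for FMR1 KO pellet. Over both genotypes it was at 195 ± 40.6 (SD, n = 6) in the pellet and 220 ± 54.9 (SD, n = 6) in fraction 5/6.

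At Tuba1a codon 105 WT pellet had heights of 4244, 2882 and 2048, and FMR1 KO pellet 3067, 1644 and 2764. In fraction 5/6 they were 3492, 1068 and 2660 in WT and 1359, 2835 and 1260 in FMR1 KO. The scaled heights were 193 ± 37.4 (SD, n = 6) in the pellet and 200 ± 62.1 (SD, n = 6) in fraction 5/6, and the groups again overlapped. Codon 105 of Gm49450 has the same 29 nt around its middle and the peak lists give it nearly the same heights, 4165, 2816 and 1882 in the WT pellet. The reads at these 2 sites cannot be told apart. At Actg1 codon 122 WT pellet had heights of 1742, 873 and 827, and FMR1 KO pellet 1584, 774 and 923. In fraction 5/6 they were 1631, 617 and 756 in WT and 795, 1505 and 458 in FMR1 KO. This sequence also occurs in 9 other gene models, none of which is annotated as coding, and its scaled heights of 76.9 ± 14.3 (SD, n = 6) in the pellet and 88.9 ± 21.0 (SD, n = 6) in fraction 5/6 overlapped.

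Other tall tubulin sites were absent from some lists. Tubb2b codon 388 was listed in 11 libraries with heights of 3868, 2352 and 1568 for WT pellet, 2783, 1074 and 3021 for FMR1 KO pellet, 2359 and 2682 in WT fraction 5/6, and 1085, 2390 and 1343 in FMR1 KO fraction 5/6. Tuba1a codon 223 was listed in the same 11 libraries at 803 to 3754. The missing library was WT fraction 5/6 replicate 2 in both cases, and in both cases an interval of that library covered the site, with its middle more than 6 nt away. Tubb3 codon 256 (Tubb3 is the neuronal beta-tubulin) was listed in all 6 pellet libraries at 1364 to 3483 but in only 3 libraries of fraction 5/6, at 790, 1158 and 2197. By interval it was also held in 9 libraries, so the remaining 3 listed nothing over this codon. Of the other tubulin sites among the 20 tallest, Tubb2a codon 76 was listed in 10 libraries at up to 3411 and Tubb2a codon 51 in 9 at up to 2846. In Tubb5, codons 291, 336 and 255 were listed in 6 libraries each at up to 3678, 3388 and 3108, codon 385 in 3 at up to 3296 and codon 271 in 2 at up to 3108. Tubb2b codon 128 was listed in 7 libraries at up to 4153, Tubb2a codon 127 in 3 at up to 3081, and Tubb2b codon 135 in 3 at up to 3132, although by interval the last was held in 11.

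Outside the tubulins, Actb codon 294 was the only one of the 20 tallest sites, with 2757 and 1385 for WT pellet, 2027, 912 and 1383 for FMR1 KO pellet, 2373, 631 and 1211 in WT fraction 5/6, and 933, 1925 and 741 in FMR1 KO fraction 5/6. Dpysl2 codon 144, with tryptophan as its middle codon, was the tallest site of that gene, with 2549 and 1220 for WT pellet, 2373, 1311 and 1573 for FMR1 KO pellet, 500 in WT fraction 5/6 replicate 2, and 741, 1300 and 380 in FMR1 KO fraction 5/6. Its lowest pellet value of 1220 lay below its highest fraction 5/6 value of 1300, so the heights as listed overlapped. Its scaled heights were 102.4 to 154 in the 5 pellet libraries and 56.8 to 98.6 in the 4 fraction 5/6 libraries that listed it, and did not overlap, with only 1 WT fraction 5/6 library among them. By their listed values 2 of the 69 tall sites listed in 9 or more libraries (2.90%) were higher in the pellet with no overlap and 1 (1.45%) in fraction 5/6, where of all 503 such sites of any height 0.596% and 3.98% were. Without the library that goes against its label these counts were 2 and 6 of the 69, and 1.39% and 12.7% of the 503. Tuba1b codon 318 had 1286, 912 and 705 for WT pellet, 997, 558 and 822 for FMR1 KO pellet, 1170, 402 and 943 in WT fraction 5/6, and 323, 884 and 258 in FMR1 KO fraction 5/6, so that it missed 300 in 1 of 12 libraries.

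**Figure D2:**
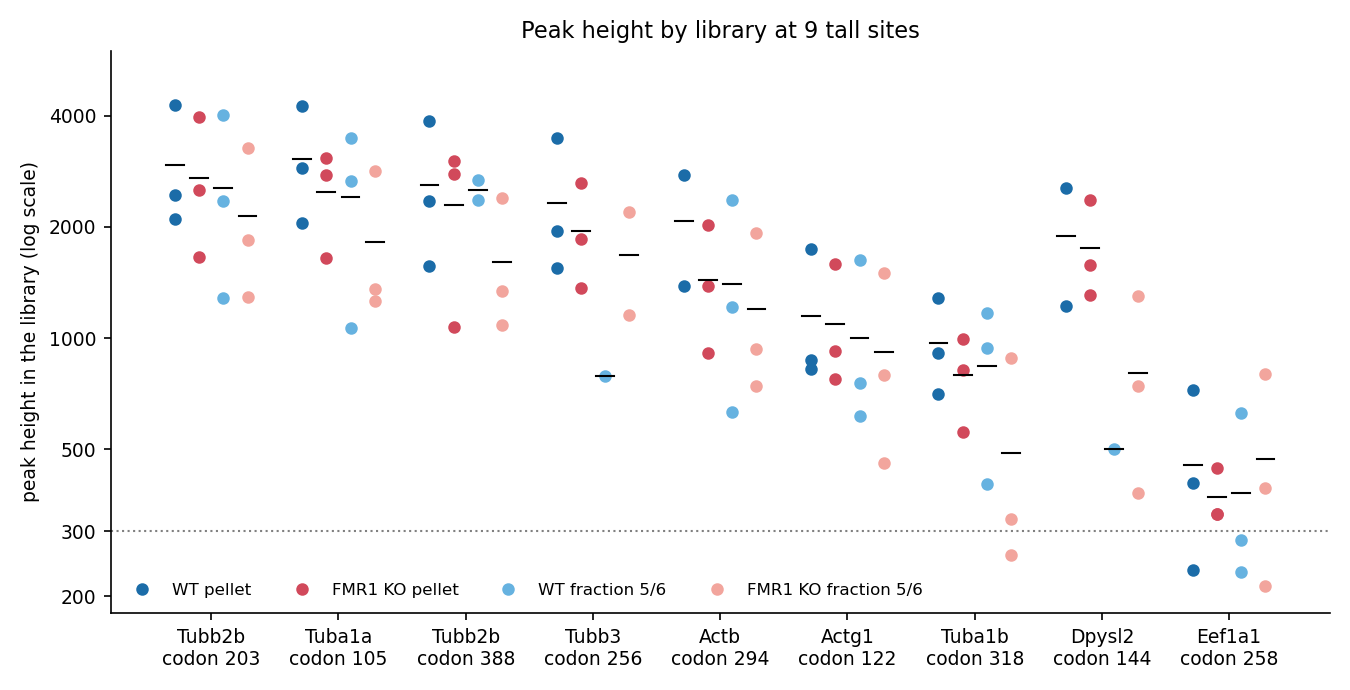
Peak height by library at 9 tall sites. The vertical axis is the peak height on a log scale, each point is a library that listed the site, colours give the 4 groups, black bars are means over the libraries that listed it, and the dotted line is the height of 300. At Tubb2b codon 203, Tuba1a codon 105 and Actg1 codon 122 every library has a point above the line and the groups overlap.

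A tall peak was as a rule a small part of its gene's RPFs. The height came to a median of 3.82% of the gene's counts, with a range over sites and libraries of 0.697% to 94.4%. At Tubb2b codon 203 it ran from 9.84% to 13.6% over the 12 libraries. At Tuba1b codon 318 it ran from 86.0% to 94.4% over the 12 libraries, with the highest median of the 424 sites. At Ubb the medians over libraries were 47.0% at codon 253, 55.1% at codon 240 and 62.0% at codon 246, and this gene encodes repeats of ubiquitin that are nearly alike in sequence. The counts come from a separate counting step, so these shares compare numbers of different origin, and how reads with several matches were treated is not given in the sources used here.

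Most tall sites recurred in some libraries but few in all. A peak of any height within 6 nt was listed in all 12 libraries for 28 sites (6.60%), in 6 or more for 127 (30.0%) and in 1 library only for 92. Counted only at 300 or more, 207 sites were tall in 1 library and 4 in all 12, namely those of Tubb2b, Tuba1a, Gm49450 and Actg1 given above. When a site counted as present wherever an interval of another library held its middle, 67 sites (15.8%) were present in all 12 libraries, 297 (70.0%) in 6 or more and 22 in 1 only. This last count was added after the data were seen. Among 119593 sites of any height in the kept region, 92 (0.0769%) were listed in all 12 libraries.

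**Figure D3:**
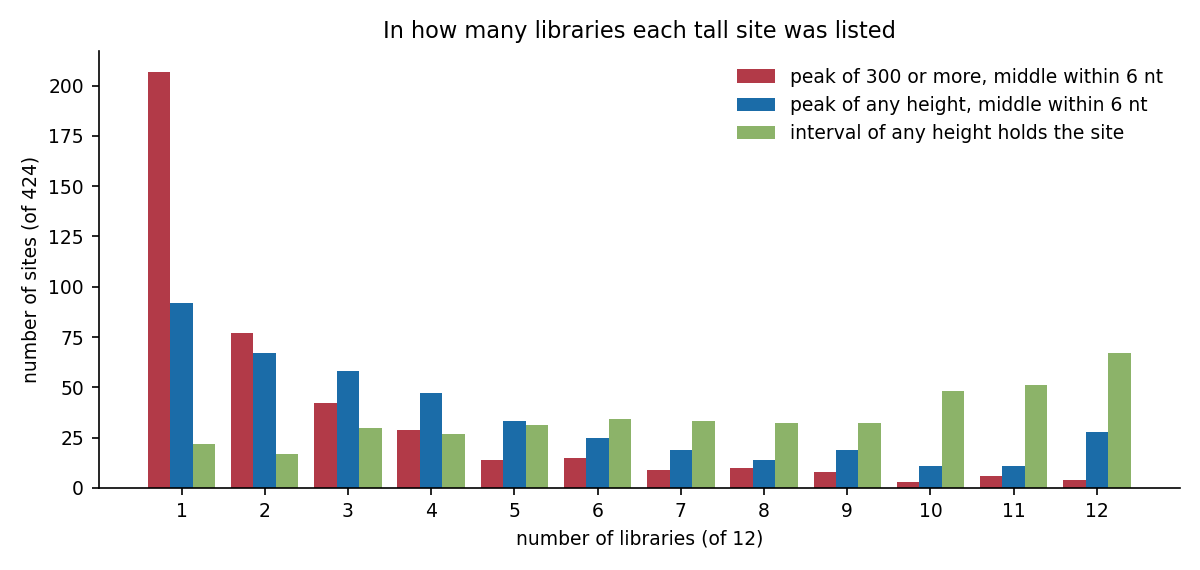
Number of libraries (horizontal axis, 1 to 12) in which each of the 424 tall sites was found, against the number of sites. Red bars count libraries with a peak of 300 or more, blue bars a peak of any height with its middle within 6 nt, and green bars an interval that holds the site. The red and blue bars are highest at 1 library (207 and 92 sites), whereas the green bars are highest at 12 libraries (67 sites).

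The 28 sites listed in all 12 libraries came from genes of several roles. Besides the tubulins and Actg1 they included 4 sites of Eef1a1 (elongation factor 1 alpha, which brings aminoacyl-tRNA to the ribosome), 3 each of Hspa8 (a constitutive Hsp70 chaperone) and Vcp (a AAA ATPase that extracts ubiquitinated proteins), and 2 of Ywhaz. Single sites lay in Eif4a1 (an RNA helicase of translation initiation), Cfl1 (cofilin, which severs actin filaments), Ywhah, Calm2, Fabp5, Ppia, Pgk1, Hsp90aa1, Hnrnpa1 and Tuba1b. None was in Dpysl2, Ndn, Marcks, Ywhag or Enc1, the genes with most sites.

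Sites were compared by the groups that listed them. In all 4 groups 131 sites (30.9%) were listed at least in 1 library, and 291 (68.6%) were listed in both pellet and fraction 5/6, 72 in the pellet only and 61 in fraction 5/6 only. Among sites listed in 2 or more libraries, 87.7% of 332 tall sites and 68.6% of 53148 sites of any height were in both fractions, with 6.63% and 21.9% in the pellet only and 5.72% and 9.51% in fraction 5/6 only. Among sites listed in 6 or more libraries, 100% of 127 tall sites and 99.8% of 3280 of any height were in both. Each fraction has only 6 libraries, so a site listed in more than 6 is in both fractions by construction. These shares therefore cannot tell whether tall sites are shared more often than others. The shares at 2 or more libraries were not matched for the number of listings, so they cannot tell this either. Leaving out the library that goes against its label, 413 of the sites kept a tall peak, of which 278 were listed in both, 83 in the pellet only and 52 in fraction 5/6 only. Likewise 291 sites were listed in both genotypes, 63 in WT only and 70 in FMR1 KO only, or 281, 55 and 77 without that library. Of the sites listed in 2 or more libraries 87.7% of the tall and 73.0% of all were in both genotypes. In WT only were 6.93% and 15.4%, and in FMR1 KO only 5.42% and 11.6%. The genotype shares were likewise not matched for the number of listings. By interval the numbers held by 1 side fell to 26 for the pellet, 11 for fraction 5/6, 12 for WT and 21 for FMR1 KO. No site was listed in all 6 libraries of the pellet and in none of fraction 5/6, or the reverse.

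In the pellet 5 sites were listed in all 3 WT libraries and in no FMR1 KO library, and 2 sites the other way round. That is 8.62% and 3.45% of the 58 tall sites listed in exactly 3 pellet libraries, where of all 6418 sites of any height listed in exactly 3 pellet libraries 5.17% were in WT alone and 3.65% in FMR1 KO alone. Over sites with any number of listings it is 1.18% and 0.472% of the 424, and 0.278% and 0.196% of all 119593. The 5 were Dpysl2 codon 90, Atp5b codon 266, Ckb codon 217 (brain creatine kinase), Actr2 codon 260 (a subunit of the Arp2/3 complex) and Clip3 codon 352, and the 2 were Dpysl2 codon 84 and Cct5 codon 242 (a subunit of the chaperonin for actin and tubulin). The sites at codons 90 and 84 of Dpysl2 lie 18 nt apart. At codon 90 the WT pellet heights were 2333, 1329 and 1127, and at codon 84 the FMR1 KO pellet heights were 1923, 764 and 1550. By interval codon 90 was held in 9 libraries, of which 2 were FMR1 KO pellet libraries, and codon 84 in 10, of which 3 were WT pellet libraries. By interval 1 site was in all WT pellet and no FMR1 KO pellet libraries, and 4 the other way round.

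Whether libraries of a group listed the same places more often than libraries of different groups was tested on the share of a library's tall peaks at which another library listed a peak within 6 nt. In the pellet this share was 50.7% within a genotype and 48.9% between genotypes, a difference of 1.83 percentage points (one-sided p = 0.2 in an exact permutation test over 6 libraries, where 3 against 3 libraries allow no p under 0.1). In fraction 5/6 it was 47.8% within and 45.1% between genotypes, a difference of 2.72 points (one-sided p = 0.5, exact permutation test). Leaving out the library that goes against its label, the values were 56.5% and 43.7%, a difference of 12.8 points (one-sided p = 0.1 in an exact permutation test over 5 libraries, the smallest they allow). Between pellet and fraction 5/6 the share was 47.9% within a fraction and 50.0% across fractions, a difference of -2.13 points (one-sided p = 0.942 in an exact permutation test over 12 libraries, which allows 0.00216), or -1.48 points without that library (one-sided p = 0.736, exact permutation test). Leaving out 1 library at a time moved the first difference between -3.30 and 8.75 points, the next between -3.16 and 12.8 and the last between -2.79 and -1.34.

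Pairs of libraries varied widely in the places they shared. Pairs of the same genotype and fraction shared 49.3% ± 13.9 (SD, 12 pairs), pairs of the same fraction and other genotype 47.0% ± 7.73 (SD, 18 pairs), pairs of the same genotype and other fraction 48.3% ± 7.46 (SD, 18 pairs) and pairs that differed in both 51.8% ± 11.3 (SD, 18 pairs). Without the library that goes against its label these were 53.0% ± 11.7 (SD, 10 pairs), 46.8% ± 8.43, 47.8% ± 7.91 and 53.8% ± 10.3 (SD, 15 pairs each). The lowest pair, at 27.1% as the mean of both directions, was WT fraction 5/6 replicate 2 with the library labelled WT fraction 5/6 replicate 3. That library shared most with FMR1 KO pellet replicate 3, at 57.4% of its own tall peaks and 53.9% in the other direction. FMR1 KO pellet replicate 2 shared most with WT fraction 5/6 replicate 2 (59.8% of its tall peaks, and 70.4% in the other direction).

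**Figure D4:**
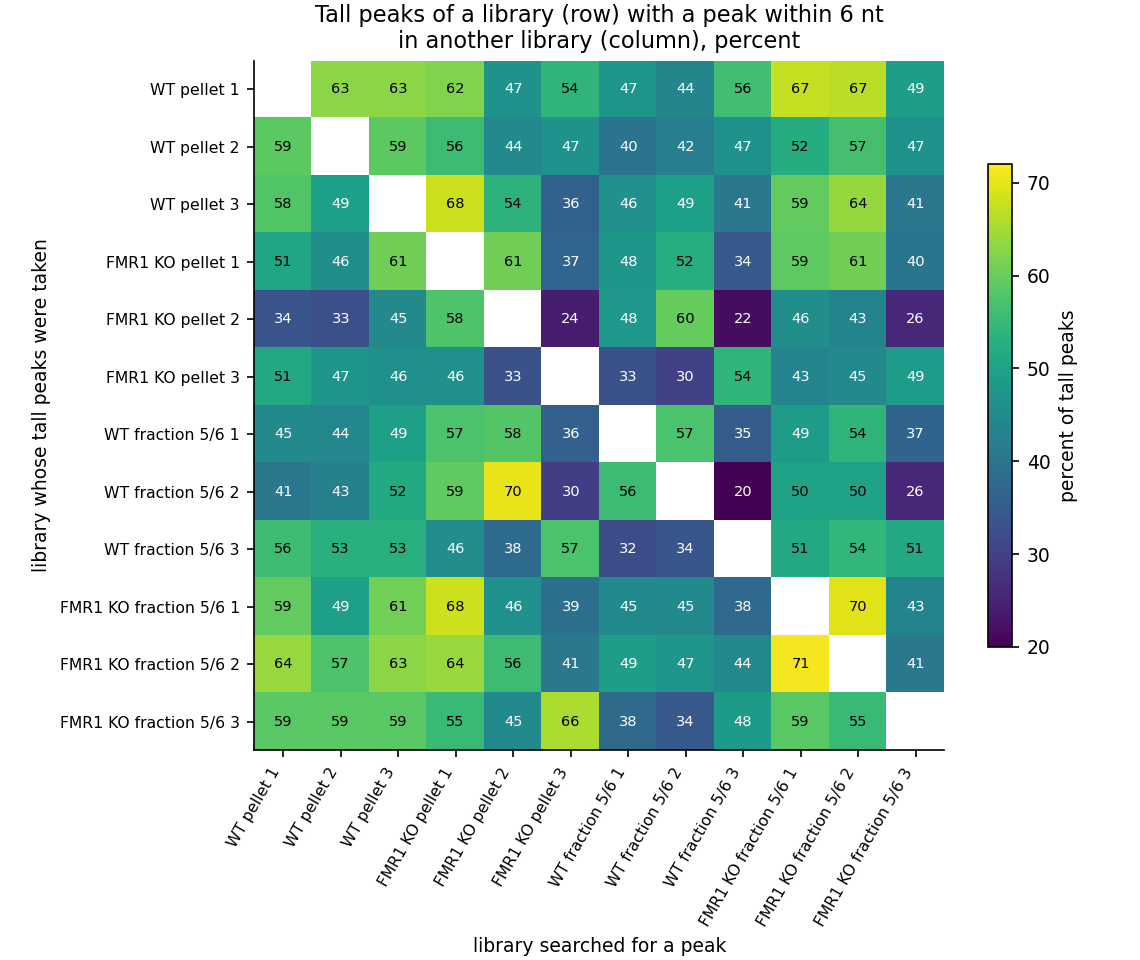
Share of the tall peaks of a library (row) for which another library (column) listed a peak within 6 nt, in percent. Rows and columns are the 12 libraries in order of their groups, and colours run from dark for low to yellow for high shares. The blocks of libraries of 1 group do not stand out, and the darkest cells are the tall peaks of WT fraction 5/6 replicate 2 (20.4%) and FMR1 KO pellet replicate 2 (21.7%) searched in the library labelled WT fraction 5/6 replicate 3.

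The 5 tallest sites listed in 1 library only were Tubb5 codon 391 at 2998 in FMR1 KO pellet replicate 3, Tubb2a codon 66 at 2376 in the library labelled WT fraction 5/6 replicate 3, Dpysl2 codon 314 at 2295 in WT pellet replicate 1, Tubb5 codon 378 at 1909 in WT pellet replicate 3, and Tubb2b codon 132 at 1843 in WT pellet replicate 2. By interval they were held in 10, 11, 1, 6 and 11 libraries, in that order. Of the 5, only Dpysl2 codon 314 was covered by no interval of another library.

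For the sites listed in every library the height in the pellet was compared with that in fraction 5/6, as scaled heights. Over the 28 sites the ratio of means had a median of 0.833, and 5 sites were above 1. Over all 92 sites of any height in 12 libraries the median was 0.825. Heights of pellet and fraction 5/6 did not separate at any of the 28 sites, against a background of 0% higher in the pellet and 0% higher in fraction 5/6 over the 92 sites. This count rests on the library that goes against its label. Leaving it out, a choice made after seeing the data, the median over the 28 sites was 0.794, and fraction 5/6 lay above the pellet with no overlap at 3 of the 28 sites (10.7%), Ywhaz codon 140, Hnrnpa1 codon 252 and Calm2 codon 95, against 9.78% of the 92 sites, and the pellet lay above fraction 5/6 at none of either.

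The smallest ratio was 0.564 at Hnrnpa1 codon 252 (an hnRNP that binds nascent transcripts), with heights of 187, 110 and 66 for WT pellet, 177, 115 and 106 for FMR1 KO pellet, 300, 160 and 85 in WT fraction 5/6 and 113, 252 and 82 in FMR1 KO fraction 5/6. It was 0.658 at Ywhaz codon 140 (14-3-3 zeta), 0.667 at Eef1a1 codon 393, 0.680 at Fabp5 codon 85 (a fatty acid-binding protein) and 0.680 at Calm2 codon 95 (calmodulin). The largest was 1.14 at Vcp codon 495, with 301, 169 and 173 for WT pellet, 225, 82 and 189 for FMR1 KO pellet, 201, 69 and 162 in WT fraction 5/6 and 90, 192 and 53 in FMR1 KO fraction 5/6. It was followed by Vcp codon 719 at 1.07, Hspa8 codon 508 at 1.06, Tuba1b codon 318 at 1.04 and Hspa8 codon 139 at 1.02. Without the library that goes against its label the ratios of the first 5 were 0.508, 0.598, 0.622, 0.620 and 0.623, and those of the last 5 were 1.17, 1.05, 1.06, 1.11 and 1.06, in the order given. With all 12 libraries pellet and fraction 5/6 overlapped at all of these sites. Without that library they no longer did at the codons named of Ywhaz (pellet at most 17.1, fraction 5/6 at least 20.03), Hnrnpa1 (11.5 and 11.7) and Calm2 (16.4 and 16.5), as scaled heights.

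For 41 sites listed in all 6 pellet libraries the scaled height of FMR1 KO over WT had a median of 0.965, and the median over all 258 sites of any height was 0.971. At 1 of the 41 sites the 3 FMR1 KO values lay above the 3 WT values, and at none the reverse, against a background over the 258 sites of 3.1% higher in FMR1 KO and 4.26% higher in WT. That site was Hsp90aa1 codon 472 (an inducible Hsp90 chaperone), named after its values were seen, with unscaled heights of 263, 159 and 180 for WT and 320, 199 and 194 for FMR1 KO, which as scaled heights are 13.5 ± 1.43 and 17.4 ± 2.92 (SD, n = 3 each).

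Among the sites listed in all 12 libraries, the largest ratio of FMR1 KO over WT in the pellet was 1.34 at Eif4a1 codon 257, with heights of 481, 331 and 244 for WT and 580, 414 and 291 for FMR1 KO. Its scaled heights were 23.4 ± 3.37 and 31.3 ± 7.31 (SD, n = 3 each) and overlapped. Next were Hnrnpa1 codon 252 at 1.25 and, after Fabp5 codon 85, Ywhaz codon 140 at 1.15 and Vcp codon 719 at 1.13. The smallest was 0.721 at Eef1a1 codon 243, with 513, 354 and 195 for WT and 272, 167 and 238 for FMR1 KO. Its scaled heights were 23.2 ± 6.36 and 16.7 ± 2.99 (SD, n = 3 each). It was followed by Ywhah codon 186 at 0.781, Hspa8 codon 139 at 0.783, Eef1a1 codon 275 at 0.826 and Vcp codon 495 at 0.854.

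Map1b, the microtubule-associated protein of growing axons and an mRNA known to be bound by FMRP, was listed in an unusual way and was chosen for this description after its values were seen. Its 9 tall sites were tall in FMR1 KO pellet replicates 1 and 2 only. FMR1 KO pellet replicate 1 listed 1 peak in the kept region, of height 1345 at codon 1876, FMR1 KO pellet replicate 2 listed 9, up to 577, and the 3 WT pellet libraries and FMR1 KO pellet replicate 3 listed none. In fraction 5/6 WT replicates 1 and 2 listed 1 and 10 peaks, up to 145 and 75, FMR1 KO replicate 3 listed 1 of height 74, and the other 3 libraries listed none. Its RPF counts did not follow this pattern. They were 9969, 9418 and 10348 per 1000000 protein-coding counts without Cdk8 for WT pellet and 11477, 5088 and 10879 for FMR1 KO pellet. A peak was listed by the authors only where it rose well above the average of its transcript, so a missing entry does not mean few RPFs. Its 10 tall peaks lay at codons 787 to 2243 of 2465.

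The residues encoded at the tall sites were not used to choose them. Over the middle codon and 5 codons to each side, acidic residues (aspartate and glutamate) made 14.7% of the residues of the 424 sites, 15.5% at the other listed sites of the same genes and 14.3% of the host coding regions weighted by their sites. Per library they made 15.2% ± 1.18 (SD, n = 12) at tall peaks and 15.3% ± 0.724 (SD, n = 12) at the other peaks of the same coding regions, and the tall peaks were higher in 6 of 12 libraries. When the 100 tallest peaks of each library were taken, which in the 8 libraries with fewer than 100 tall peaks include peaks under 300, the shares were 15.4% and 13.9%, a difference of 1.51 percentage points, and the 100 tallest were higher in 12 of 12 libraries. In the pellet acidic residues made 15.8% ± 1.57 (SD, n = 3) in FMR1 KO and 14.7% ± 0.428 (SD, n = 3) in WT, a difference of 1.13 percentage points (two-sided p = 0.4 in an exact permutation test that allows no p under 0.1). Over both genotypes the pellet had 15.2% ± 1.20 (SD, n = 6) and fraction 5/6 15.2% ± 1.28 (SD, n = 6), with a difference of 0.0343 points (two-sided p = 0.968, exact permutation test), or 0.286 points without the library that goes against its label.

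Averaged per library, glutamate was at 9.62% at tall peaks and 8.74% at the other peaks of the same coding regions, higher in 10 of 12 libraries, but counted once per site it was at 9.11% at the tall sites and 9.23% at the other sites of the same genes. Aspartate was at 5.59% and 6.53% per library, higher in 1 of 12, and at 5.60% and 6.29% per site. Aromatic residues made 8.86% ± 0.900 (SD, n = 12) at tall peaks and 7.59% ± 0.468 (SD, n = 12) at the others, higher in 10 of 12 libraries. Glycine made 6.78% ± 1.02 (SD, n = 12) and 8.88% ± 0.648 (SD, n = 12), higher in 1 of 12. These are descriptions without a test, since the libraries share many of their sites and genes.

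By gene the acidic share ran from far above to far below that of the coding region. Of 27 genes with 5 or more sites, 16 had a higher share at their sites than in their coding region. It was 17.3% against 9.86% in Tubb2a, 14.5% against 9.86% in Tubb2b, 16.2% against 9.43% in Usp22 and 24.2% against 18.9% in Map1b. It was lower in Actb with 7.58% against 13.7%, in Hsp90ab1 with 15.2% against 19.4% and in Tubb5 with 6.82% against 9.89%. The beta-tubulins thus differed among themselves at their listed sites. Those of Tubb2a and Tubb5 lay in different stretches of the coding region, and reads may in part be placed on either gene.

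Short motifs that have been linked to FMRP binding were counted on the mRNA strand in the 35 nt around each middle. AGGA or TGGA occurred at 173 of 424 sites (40.8%), at 48.9% of the other listed sites of the same genes, in 41.6% of all 89262 windows of this length in the host coding regions and in 41.7% of windows taken every 7 nt over all coding regions. ACTG or ACTT occurred at 24.1% of tall sites, 21.0% of other sites and 22.9% of host windows. GACA occurred at 72 of the 424 tall sites, 15.8% of other sites and 17.5% of host windows. For these motifs the share at tall sites was close to that of the host windows, and GC bases made 54.4% of tall sites and 53.8% of host windows. A match is a description of the letters and not of a binding site.

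The tubulin, actin, collapsin response mediator, Hsp90 and eEF1A genes were compared for shared places of tall peaks. Of 38 sites in 6 beta-tubulin genes, 19 (50%) lay within 6 nt of a tall site at the matching place of another beta-tubulin, as at the codons 388 and 383 printed above. Tubb5 codon 388 was listed in WT pellet replicate 1 at 3912 and in FMR1 KO fraction 5/6 replicate 3 at 1092 only, where Tubb2b codon 388 was listed in 11 libraries. Tubb3 codon 383 had 3123 and 1482 in WT pellet replicates 1 and 3, 2578 in FMR1 KO pellet replicate 1, and 973 and 1869 in FMR1 KO fraction 5/6 replicates 1 and 2, and was not listed in WT fraction 5/6. By middles within 6 nt a matching place thus did not bring the same listing in both genes. Their presence by interval was not compared here. Tubb2a codon 202 matched Tubb2b codon 203 with 4 of 33 bases different, Tubb2a codon 127 matched Tubb2b codon 128 with 3 different, and the sites at codon 116 of both differed in 2. Actg1 codon 122 matched Actb codon 121 with 4 bases different. Of 42 sites of the collapsin response mediator genes 7 matched, with 14 to 18 bases different, and none of the 5 alpha-tubulin, 8 Hsp90 or 10 eEF1A sites did. With as few as 2 to 4 bases between paralogues, reads may in part be placed on either gene, and the share of such reads was not tested.

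The same 29 nt occurred in another annotated gene for 34 sites (8.02%), and in another coding gene for 7. Besides Tuba1a codon 105 with Gm49450 these were codons 270, 323 and 121 of Actb, codon 219 of Tuba1a, shared with Tuba1b and Tuba1c among others, and Ppia codon 63 with 14 other gene models. The heights at these sites are uncertain between the copies.

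Whether the host genes themselves differed between groups was tested in libraries that did not choose the peaks, with edgeR's quasi-likelihood test and Benjamini-Hochberg adjustment over all protein-coding genes tested. In RNA-seq none of the 86 host genes passed an adjusted p of 0.05 between FMR1 KO and WT with edgeR, none had an unadjusted p under 0.05 and DESeq2 also called none. Over all 16314 genes 0.0306% were called higher and 0.0429% lower. The host genes had log2 fold changes of -0.19 to 0.32, with a median of 0.06 against 0.00 for all genes. In the low nuclease pellet edgeR called none of the 86 between FMR1 KO and WT, none had an unadjusted p under 0.05, and DESeq2 called none, with 0% of 15246 genes called higher and 0.0197% lower. The median log2 fold change was 0.07, and the range was -0.60 to 0.55.

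Pellet and fraction 5/6 were compared in the low nuclease preparation too, but the host genes lean towards fraction 5/6 by their choice, since 16 of the 86 had tall peaks in fraction 5/6 only and 6 in the pellet only. Counts over the 86 are therefore a description. In WT 3 of 86 rose and 14 fell in edgeR (3.49% and 16.3%), where 14.3% of all 15570 genes rose and 8.59% fell, with a median log2 fold change of -0.23 for the host genes and -0.02 for all. In FMR1 KO also 3 rose and 14 fell, where 8.82% of all 15562 genes rose and 11.8% fell, with medians of -0.23 and -0.04. Of the 64 genes tall in both fractions 2 rose and 6 fell in WT (3.13% and 9.38%) and 2 rose and 9 fell in FMR1 KO (3.13% and 14.1%), with medians of -0.19 and -0.17. Of the 16 tall in fraction 5/6 only none rose, and 8 fell in WT and 5 in FMR1 KO, and of the 6 tall in the pellet only 1 rose in each genotype and none fell. With library size alone in place of the scaling factors 3 rose and 22 fell in WT, and 3 rose and 43 fell in FMR1 KO. A difference between the genotypes in this enrichment was not tested. With DESeq2 the calls in WT were 41, of which 17 were those of edgeR, and leaving out any 1 replicate number left none in WT and at most 1 in FMR1 KO.

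Map1b, which became a host through the pellet only, had the largest rise, from 2098, 2452 and 1027 CPM in WT fraction 5/6 to 8964, 9379 and 7982 in WT pellet, a log2 fold change of 2.34 ± 0.45 (SE, edgeR adjusted p = 0.0195), and 2.46 ± 0.34 in FMR1 KO (SE, edgeR adjusted p = 0.0136). Wdr6, a WD-repeat protein, rose by 1.27 ± 0.28 and 1.04 ± 0.22, and Eef2, the translocation factor of elongation, by 0.99 ± 0.25 and 0.76 ± 0.20 (log2 ± SE, WT and FMR1 KO). These 3 genes were called higher in both genotypes, where 14.3% of all genes rose in WT and 8.82% in FMR1 KO. Wdr6 and Eef2 had tall peaks in both fractions.

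The 5 largest falls in WT were Ubb by 1.06 ± 0.22, Ppia (cyclophilin A) by 0.87 ± 0.19, Hnrnpa2b1 (an RNA-binding protein of transport granules) by 0.85 ± 0.18, Calm2 by 0.73 ± 0.17 and Gap43 (a growth cone protein) by 0.72 ± 0.19 on the log2 scale (± SE), of which Ppia and Hnrnpa2b1 were hosts through fraction 5/6 only. In FMR1 KO they were Fabp5, again a host through fraction 5/6 only, by 0.76 ± 0.15, Marcksl1 by 0.67 ± 0.17, Rnf187 by 0.65 ± 0.12, Ckb by 0.65 ± 0.14 and Cfl1 by 0.64 ± 0.15. None of the 8 host tubulins was called in either genotype, with median log2 fold changes of 0.07 in WT and -0.02 in FMR1 KO. Of 11 microtubule-associated and growth cone genes 1 rose and 1 fell in WT and 1 rose and 2 fell in FMR1 KO, and of 5 translation factors 1 rose in each and none fell. Of 14 signalling genes none rose and 2 fell in each genotype, of 8 actin genes and regulators none rose and 1 and 2 fell, and of 5 RNA-binding proteins 2 fell in WT, both hosts through fraction 5/6 only, and none in FMR1 KO. Over all genes tested 14.3% rose and 8.59% fell in WT, and 8.82% and 11.8% in FMR1 KO. The lists are too small for their counts to be set apart from these shares.

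**Figure D5:**
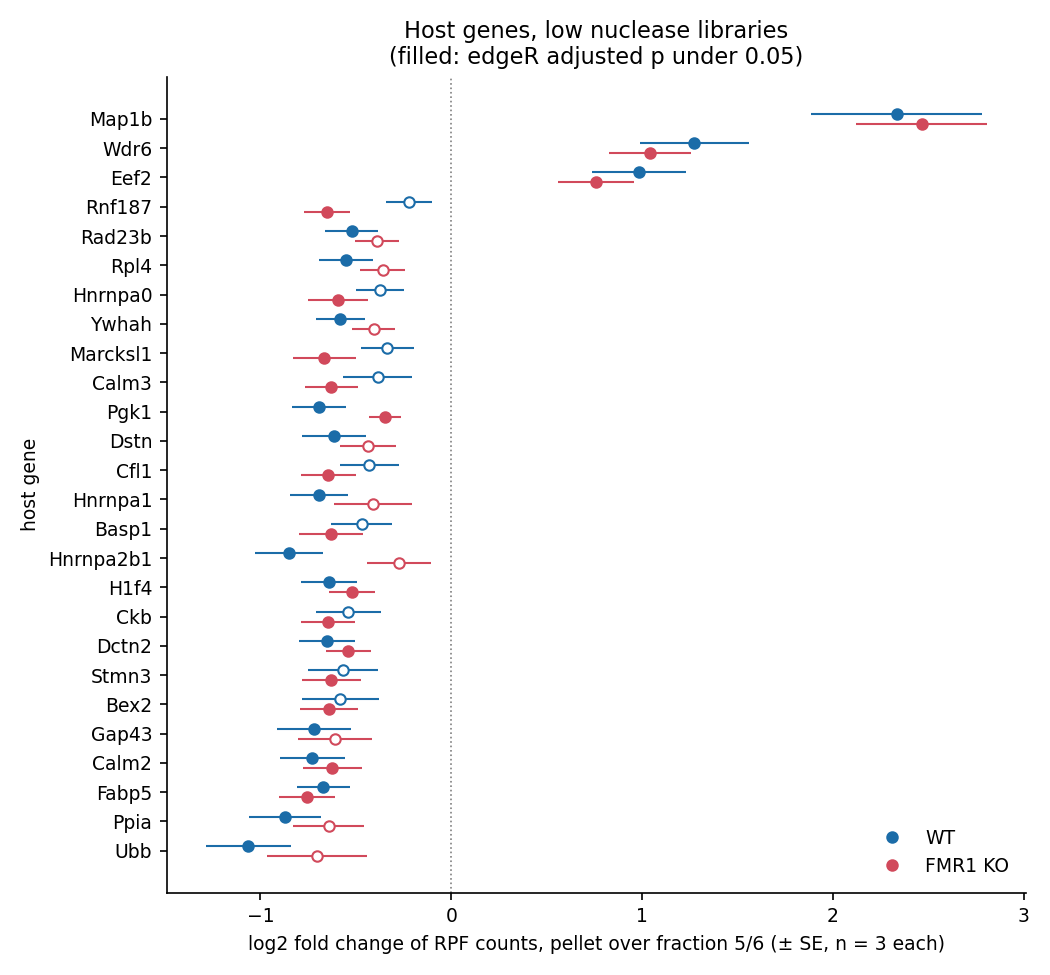
The 26 host genes called in either genotype between pellet and fraction 5/6 of the low nuclease preparation. The horizontal axis is the log2 fold change of RPF counts with its SE as bars (n = 3 libraries each), blue is WT, red is FMR1 KO, and filled points passed an adjusted p of 0.05 in edgeR. Map1b, Wdr6 and Eef2 lie to the right and the other 23 to the left in both genotypes.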

How the data were processed

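Per the labels, 10 brains were pooled for each preparation, the RPFs of pellet and fraction 5/6 were sequenced in 3 libraries per group, and no label ties libraries of different groups to the same animals. For the peak lists the deposited files give for each library and transcript the interval and height of every peak of RPF coverage, a signal in reads that the authors called per library where it rose above the average of the transcript and did not scale between libraries. The counts are raw reads per gene, which the authors deposited for all samples as a single table. The submitters' processing notes name cutadapt 2.10, Bowtie2 2.3.5, STAR 2.7.8a, SAMtools 1.19.2, Picard and featureCounts 2.2.0, with GRCm38 and Ensembl 102. The methods state that pooled reads were split into libraries by short barcodes, and that PCR duplicates were marked with Picard and removed. The precision given covers the spread between libraries.

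Intervals were placed on GENCODE vM21 transcripts and 29 transcripts with 1499 peaks, none of them tall, were absent from vM21 and left out. Peaks of a gene were joined by their middles within 6 nt. Recurrence and acidic residues were compared between libraries with exact permutation tests (Python 3.11.15, numpy 2.4.6, pandas 2.3.3). Counts of protein-coding genes were tested with edgeR 4.0.16 in R 4.3.3 (filterByExpr, TMM, quasi-likelihood test, Benjamini-Hochberg adjusted p of 0.05), after the code was tested on simulated data. The SE of a log2 fold change is its size divided by the square root of the F statistic. CPM values use all counts of a library for Fmr1 and all protein-coding counts beside the edgeR tests.

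Named sites were the 20 tallest, those tall in all 12 libraries, the 5 tallest listed in 1 library only, and the 5 largest and 5 smallest ratios of scaled height between fractions and between genotypes among sites listed in all 12 libraries. Named genes were those with most sites and the 5 largest changes in each direction. The members and lists were chosen with earlier results of these data known. The alternatives were other heights, margins, matching windows and codon windows, library size scaling, DESeq2 1.42.0, no filter, a replicate block and leaving out each library. The presence of a site by interval was added after seeing the data. Same-numbered libraries of the low nuclease pellet and fraction 5/6 deviated together to a small degree in both genotypes. For the 3 numbers r was 0.187, 0.118 and 0.209 in WT and 0.361, 0.150 and 0.0655 in FMR1 KO, which comes from the data and not from the labels. A few results are not reported here.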

Additional observations from a re-analysis of the deposited data

How the results depend on the processing

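The number of sites and those in all libraries followed the threshold. With a height of 200 or more there were 757 sites, with 500 or more 204 and with a margin of 100 codons 239, and leaving out 1 library gave 357 to 420. Sites listed in all libraries were 50 at 200 or more and 11 at 500 or more, 67 when presence was taken by interval (chosen after seeing the data), and 24 to 32 without 1 library. The difference in shared places between genotypes ran from -3.30 to 8.75 points in the pellet and -3.16 to 12.8 in fraction 5/6 without 1 library, and the difference between fractions from -2.79 to -1.34.

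The acidic difference between pellet and fraction 5/6, near 0 in the data as reported, became -0.253 with 3 codons to each side, -0.313 with the middle moved 3 nt 5′ and -0.515 for the 100 tallest sites of each library, and ran from -0.370 to 0.330 without 1 library. The acidic difference between tall and other peaks became 1.51 for the 100 tallest peaks, and -0.237 to 0.109 without 1 library. Between genotypes in the pellet it was 0.578 to 2.03 without 1 library, and 1.87 with 3 codons to each side (exact permutation test, p = 0.1, the smallest possible). The cause was not tested.

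Host genes called between pellet and fraction 5/6 numbered 41 in WT with DESeq2 and 46 in FMR1 KO with library size alone, and 0 to 0 in WT and 0 to 1 in FMR1 KO without 1 replicate number. With the replicate number as a block (paired) 21 were called in WT, all 17 included, and 19 in FMR1 KO, 16 of the 17 included. The replicate block left 0 calls between genotypes. Of 16 values of named genes, 1 (Eef2 in FMR1 KO) lost its call under the block and none under DESeq2, library size or no filter, whereas 15 or 16 lost it without 1 replicate number. In FMR1 KO the r of same-numbered libraries were 0.361, 0.150 and 0.0655, above 0 as in WT. Whether libraries of the same number belong together was not tested in either genotype. With 3 libraries a group, exact permutation tests between genotypes cannot reach p under 0.1, and a height of 300 is a higher bar in a shallow library.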
